A study of Mus musculus with 4 samples.

Results

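Conventional dendritic cells of type 1 (cDC1) and of type 2 (cDC2) from tumours of EO771, a mammary carcinoma line of the mouse, were compared by bulk RNA sequencing. The labels call the first population CD103+cDC1 and the second CD11b+cDC2, and each was represented by 1 library, so that 2 of the 4 libraries of the series enter the comparison. The 2 further libraries, from a CD103int CD11b+ dendritic cell population (CD103int DC) and from macrophages of the same tumour type, serve here as side values. The labels give no sorting gates, no age, strain or number of mice, no number of cells, and no treatment for any library, although the title of the study names hetIL-15, a complex of interleukin-15 with its receptor alpha chain, given locoregionally. Levels are CPM (reads of a gene per 1000000 reads) as scaled by the authors, and where a pair of values follows a gene, the first is cDC1 and the second cDC2. A gene was compared when its higher library reached 10 CPM, which held for 8459 of the 13976 genes in the table, of which 8214 were protein coding. Just inside this limit lay Engase (5.36 and 10.002 CPM) and Mrps35 (7.14 and 10.003 CPM), and just outside it Brms1l (9.99 and 5.56 CPM) and Dbr1 (9.99 and 9.49 CPM).

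Conventional dendritic cells take up antigen in tissues and present it to T cells. The cDC1 are known for moving antigen taken up from dying cells onto MHC class I for CD8 T cells, and depend on the transcription factors IRF8 and BATF3. The cDC2 present mainly to CD4 T cells through MHC class II and use IRF4 and, in part, KLF4 and NOTCH2. In tumours the cDC2 gate is known to hold cells that share surface proteins, CD11b among them, with cells of monocyte origin.

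The columns stood for 44400000 (cDC1) and 44900000 (cDC2) estimated reads, and for 56000000 and 63800000 in the CD103int DC and macrophage libraries. A value of 10 CPM stood for 491 estimated reads in cDC1 and 464 in cDC2, with a counting error of 4.52% and 4.64%. The cDC1 library listed 454 genes at 0, against 10 to 20 in the other libraries. A pair of gene models that collect ribosomal RNA, Gm26917 and Gm42418, took 12.5% of the cDC1 column and 5.94% of the cDC2 column. With 1 library per population no difference could be set against replicate error, and no test, p-value or standard deviation is given. An interval printed with a fold is its 95% interval from counting error alone, and amplified reads are not independent molecules. In bulk RNA, fewer cells of a type and less RNA per cell cannot be told apart.

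The difference of log2(CPM + 1), cDC1 minus cDC2, had a median of -0.01 over the compared genes, with quartiles of -0.40 and 0.34. Within 2-fold of each other (a difference under 1) lay 7035 genes, or 83.2%. At least 4-fold (a difference of 2 or more) were 198 genes higher in cDC1, or 2.34% of the compared genes, and 304 higher in cDC2, or 3.59%. At least 2-fold were 615 genes (7.27%) and 809 genes (9.56%). These shares of all compared genes are the background for each list count below. Of the genes at least 2-fold apart, 43.2% were higher in cDC1. With protein-coding genes only, the split was 594 to 777 genes, or 43.3%. With these genes also rescaled to equal protein-coding totals, an alternative chosen after seeing the data, it was 745 to 629 genes, or 54.2%, and the median of the compared genes moved by 0.16 toward cDC1, so that small differences below are relative to the scaling used. The balance between the sides differed with the level. Among genes whose higher level was between 10 and 30 CPM, 2.72% were at least 4-fold higher in cDC1 and 2.82% in cDC2. The shares were 1.88% and 3.03% between 30 and 100 CPM, 2.85% and 4.77% between 100 and 300 CPM, 1.60% and 8.90% between 300 and 1000 CPM, and 2.17% and 7.61% from 1000 CPM. In the plot of all compared genes, Lyz2 and Fn1 stand out at high cDC2 levels.

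**Figure D1:**
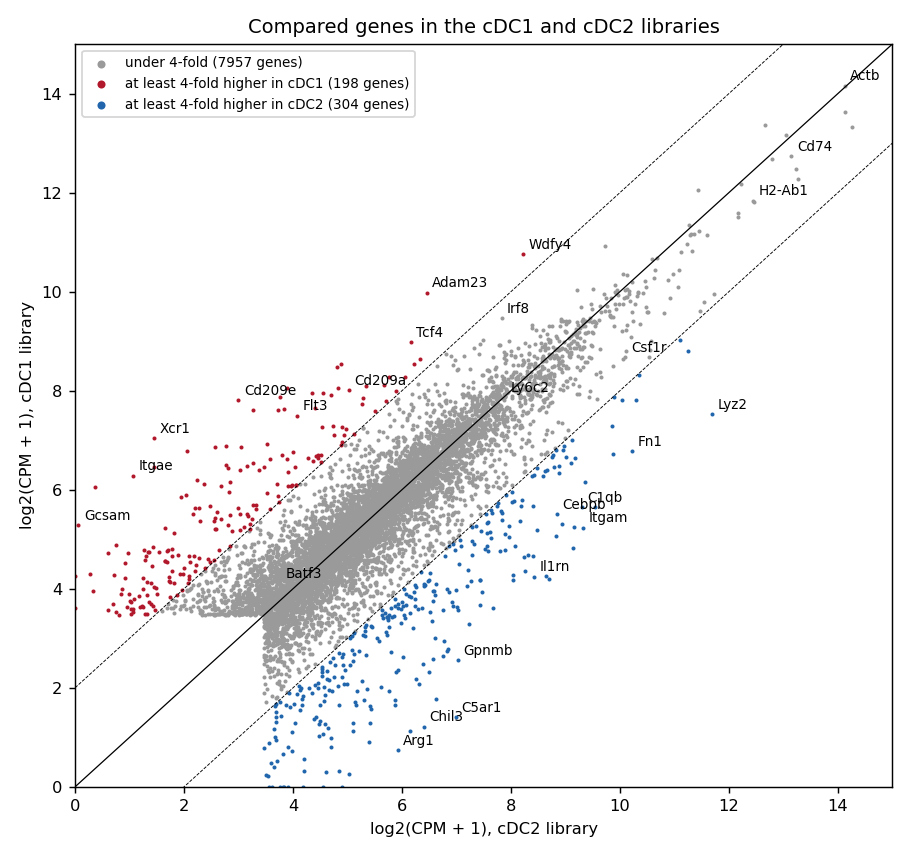
Levels of the 8459 compared genes on log2(CPM + 1), with the cDC2 library on the horizontal and the cDC1 library on the vertical axis, 1 point per gene; the solid line marks equal levels and the dashed lines a difference of 2. The 198 genes at least 4-fold higher in cDC1 are red and the 304 at least 4-fold higher in cDC2 are blue, with Xcr1, Itgae and Gcsam far on the first side and C5ar1, Chil3 and Arg1 far on the second.

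Both labels were first set against the proteins they name. Itgae, which encodes the integrin chain CD103 (chromosome 11, 73090583 to 73147446 on GRCm38), stood at 76.98 CPM in cDC1 and 1.10 CPM in cDC2, a difference of 5.21. Itgam, which encodes CD11b (chromosome 7, 128062640 to 128118491), stood at 36.7 CPM in cDC1 and 638 CPM in cDC2, a difference of -4.09. Each label was thus matched by its transcript, Itgae being 70.02-fold (95% interval 53.1 to 94.2) higher in cDC1 and Itgam 17.4-fold (95% interval 16.6 to 18.3) higher in cDC2. Because the sorted populations are named by these proteins, the match may follow from the selection. It is no independent check of either label. Haspin lies within Itgae on the opposite strand, and the gene model Gm49368 overlaps Itgam on the same strand. How reads of overlapping genes were assigned is not given in the sources used here. The limit touches further genes named below, Cfb (Gm20547), Chl1 and Anxa3 (small gene models) and Fpr2 (Fpr3) among them.

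Most genes that mark cDC1 were higher in the cDC1 library. Of 21 compared genes of the cDC1 surface and function list, 13 were at least 4-fold higher in cDC1 and 0 in cDC2, where all compared genes gave 2.34% and 3.59%, and the median difference was 2.41. Xcr1, the receptor through which cDC1 sense the chemokine XCL1 (chromosome 9, 123852315 to 123862029), stood at 130.5 CPM in cDC1 and 1.72 CPM in cDC2, 75.6-fold (95% interval 60.7 to 95.5) higher in cDC1. Gcsam, a signalling adaptor first described in germinal centre B cells, stood at 37.98 CPM in cDC1 and at 0.0431 CPM in cDC2, which is a level of few reads, so that its 881-fold difference has an interval from 244 to 7279. Clec9a, the receptor for exposed actin of dead cells, stood at 60.2 CPM in cDC1 and 10.5 CPM in cDC2. Wdfy4, needed for cross-presentation of cell-bound antigen, reached 1728 CPM in cDC1 and 297 CPM in cDC2, a difference of 2.54. Tlr3, the endosomal sensor of double-stranded RNA, stood at 108 CPM in cDC1 and 15.03 CPM in cDC2. Btla, an inhibitory receptor that binds TNFRSF14, stood at 116 CPM in cDC1 and 4.92 CPM in cDC2, and Cd24a, a small surface glycoprotein, at 241 CPM in cDC1 and 24.9 CPM in cDC2. The endocytic receptor Ly75 (43.4 and 8.06 CPM), Cd8a (50.2 and 4.53 CPM), Snx22 (17.5 and 0.889 CPM), Gpr33 (13.5 and 1.25 CPM) and the phosphatase Ppm1m (219 and 51.2 CPM) completed the 13.

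The remaining 8 members lay within 2-fold of each other in the 2 libraries. Cadm1, an adhesion molecule widely used to gate cDC1, stood at 87.6 CPM in cDC1 and 73.6 CPM in cDC2, a difference of 0.25. Naaa, a lysosomal amidase, was among them, and Rab7b, a GTPase of late endosomes, stood at 109.8 CPM in cDC1 and 116 CPM in cDC2. Rab43 (465 and 279.8 CPM), Itgb7 (234 and 138 CPM), Ppt1 (346 and 208 CPM), Ifi205 (291 and 192 CPM) and Fgl2 (312 and 440.2 CPM) behaved alike, with differences between -0.50 and 0.76. The list was written with earlier results of these data known and is no independent evidence of its direction.

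**Figure D2:**
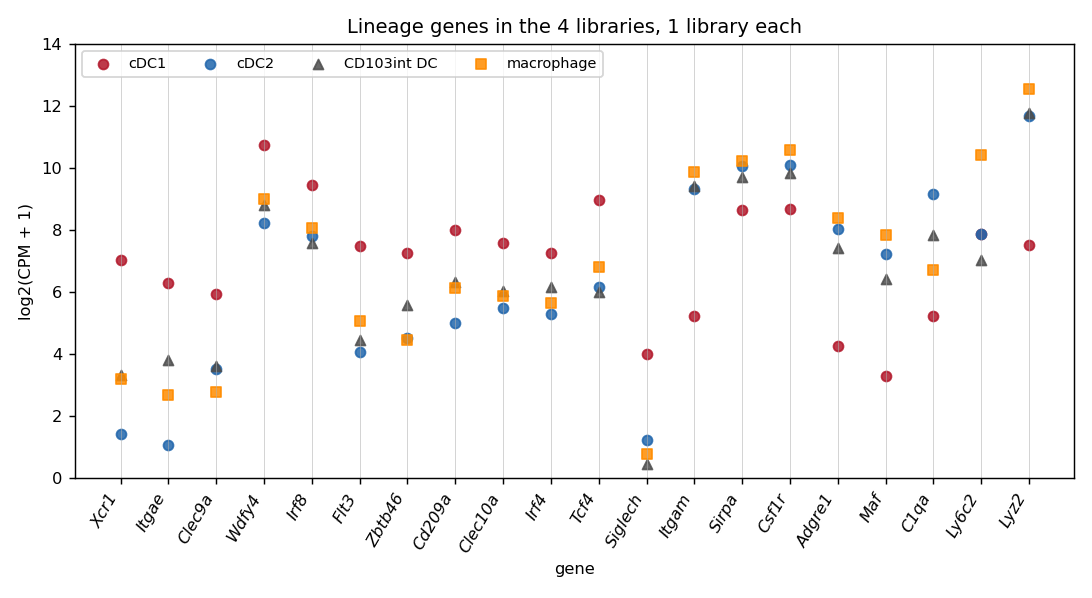
Levels of 20 lineage genes, named on the horizontal axis, on log2(CPM + 1) in the cDC1 (red circle), cDC2 (blue circle), CD103int DC (grey triangle) and macrophage (orange square) libraries, 1 library each. Xcr1, Itgae, Flt3, Zbtb46 and Tcf4 are highest in cDC1, whereas for Itgam, Csf1r, Adgre1 and Lyz2 the cDC1 library is the lowest of the 4.

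Genes listed for cDC2 did not go one way. Of 17 compared members, 6 were at least 4-fold higher in cDC2 and 3 at least 4-fold higher in cDC1, with a median difference of -0.43. On the cDC2 side with Itgam stood the C-type lectin genes Clec4a1 (28.1 and 267 CPM), Clec4a2 (15.6 and 144 CPM), Clec4a3 (26.3 and 191 CPM), Clec7a (222 and 1044 CPM) and Clec12a (39.96 and 189.6 CPM). Clec7a encodes Dectin-1, the receptor for fungal beta-glucan, and the Clec4a genes are neighbours of similar sequence, whose reads may be shared. Sirpa, the receptor for CD47 used to gate cDC2, stood at 399.7 CPM in cDC1 and 1062 CPM in cDC2, a difference of -1.41, and Ccr2, the receptor that draws monocytes from the blood, at 254 CPM in cDC1 and 701 CPM in cDC2. Higher in cDC1 instead were Cd7 (97.1 and 10.97 CPM), Cd209a (257 and 31.5 CPM) and Clec10a (191 and 44.2 CPM), the last 2 being lectins commonly used to mark cDC2. Mgl2, the closest relative of Clec10a, stood at 337 CPM in cDC1 and 368 CPM in cDC2, and Cd4 at 16.98 CPM in cDC1 and 23.3 CPM in cDC2, both within 2-fold. Cx3cr1 (61.3 and 40.4 CPM), the fractalkine receptor, Cd300a (308 and 275 CPM) and the membrane protein Tmem176b (61.2 and 43.3 CPM) were within 2-fold too, and its neighbour Tmem176a (48.7 and 23.6 CPM) was just beyond 2-fold toward cDC1. The remaining 3 members in the table stayed under 10 CPM in both libraries.

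The Cd209 cluster, a set of neighbouring lectin genes related to human DC-SIGN, had 3 members above the minimum, all higher in cDC1. Cd209e stood at 222 CPM in cDC1 and 6.98 CPM in cDC2 (31.8-fold, 95% interval 28.5 to 35.6). Cd209d stood at 117 CPM in cDC1 and 5.78 CPM in cDC2 (20.3-fold, 95% interval 17.97 to 23.05). Cd209a stood at 257 CPM in cDC1 and 31.5 CPM in cDC2 (8.17-fold, 95% interval 7.74 to 8.63). Cd209c lay under the minimum at 5.85 and 0.862 CPM. In the other libraries, Cd209a stood at 78.8 CPM in CD103int DC and 68.9 CPM in macrophages, Cd209d at 13.9 and 9.95 CPM and Cd209e at 18.4 and 16.4 CPM, so that the cDC1 value was the highest of the 4 for each of the 3 genes. The copies are similar in sequence, and reads may be shared among them. Their RefSeq promoters (GRCm38.p6, minus strand, 250 bases before to 50 bases after the start, chr8:3748935-3749234, chr8:3878450-3878749 and chr8:3854237-3854536) are printed 5′ to 3′ because the 3 genes lie together and differ in the same direction. The promoter of Cd8a (chr6:71373177-71373476, plus strand), a further gene higher in cDC1, is shown with them and was picked after its matches were seen. Capitals mark matches, on either strand, to 8 short motifs of factors used in myeloid cells.
Cd209a: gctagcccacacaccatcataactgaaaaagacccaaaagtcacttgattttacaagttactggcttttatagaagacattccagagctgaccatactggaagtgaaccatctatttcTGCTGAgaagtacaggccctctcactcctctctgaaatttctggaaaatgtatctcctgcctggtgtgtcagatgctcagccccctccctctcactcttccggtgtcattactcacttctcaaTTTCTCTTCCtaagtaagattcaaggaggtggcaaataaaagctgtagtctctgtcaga
Cd209d: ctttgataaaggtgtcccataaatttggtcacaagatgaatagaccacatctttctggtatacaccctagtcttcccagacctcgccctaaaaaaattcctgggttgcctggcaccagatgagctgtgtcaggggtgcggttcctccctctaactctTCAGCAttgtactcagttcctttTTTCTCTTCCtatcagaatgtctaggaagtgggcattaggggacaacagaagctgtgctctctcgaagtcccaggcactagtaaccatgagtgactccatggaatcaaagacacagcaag
Cd209e: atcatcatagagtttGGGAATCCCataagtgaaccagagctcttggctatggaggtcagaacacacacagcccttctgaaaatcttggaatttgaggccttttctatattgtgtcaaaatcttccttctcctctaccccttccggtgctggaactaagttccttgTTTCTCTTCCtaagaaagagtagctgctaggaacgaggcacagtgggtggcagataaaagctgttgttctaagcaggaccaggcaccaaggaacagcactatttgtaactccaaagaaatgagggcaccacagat
Cd8a: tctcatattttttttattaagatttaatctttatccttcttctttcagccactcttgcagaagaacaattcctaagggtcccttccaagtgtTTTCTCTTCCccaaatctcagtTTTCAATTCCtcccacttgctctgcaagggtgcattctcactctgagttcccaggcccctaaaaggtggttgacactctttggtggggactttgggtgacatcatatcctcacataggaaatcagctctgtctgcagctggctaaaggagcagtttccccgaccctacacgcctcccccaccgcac
Each of the 4 windows held an ETS-IRF composite (GGAA, any 2 bases, GAAA), read on the opposite strand as TTTC, 2 bases and TTCC. It began at base -9 from the start site in Cd209a, -70 in Cd209d, -85 in Cd209e and at both -158 and -136 in Cd8a, counting the start as 1. The other capitals mark a partial MAF site (TGCTGA) in Cd209a and Cd209d and a kB site (GGGANNNCC) in Cd209e.

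On the cDC2 side, the promoters of Chil3 (chr3:106167515-106167814, minus strand) and Gpnmb (chr6:49036268-49036567, plus strand) are shown as 2 of the 25 genes furthest toward cDC2 whose windows held motifs that were commoner on that side, and were also picked after the matches were seen.
Chil3: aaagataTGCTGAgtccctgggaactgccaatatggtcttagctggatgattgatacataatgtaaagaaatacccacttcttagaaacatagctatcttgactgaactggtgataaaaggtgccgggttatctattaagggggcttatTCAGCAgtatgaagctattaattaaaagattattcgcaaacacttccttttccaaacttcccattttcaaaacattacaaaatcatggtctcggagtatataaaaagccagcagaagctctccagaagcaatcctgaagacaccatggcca
Gpnmb: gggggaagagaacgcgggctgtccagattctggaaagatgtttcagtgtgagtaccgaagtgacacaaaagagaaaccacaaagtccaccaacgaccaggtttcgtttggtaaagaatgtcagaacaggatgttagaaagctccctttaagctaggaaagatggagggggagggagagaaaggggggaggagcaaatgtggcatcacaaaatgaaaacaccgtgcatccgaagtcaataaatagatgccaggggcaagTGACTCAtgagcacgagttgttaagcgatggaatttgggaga
Chil3 held the partial MAF site at -243 and -101, and Gpnmb held an AP-1 site (TGANTCA) at base 9. RefSeq promoters were matched by symbol for 6609 of the 8459 compared genes (8433 windows), for 145 of the 198 genes at least 4-fold higher in cDC1 (179 windows) and for 230 of the 304 in cDC2 (280 windows). The AP-1 site was in 5.12% of all windows, 5.59% of the cDC1-side and 11.4% of the cDC2-side windows. The partial MAF site was in 14.5%, 19.6% and 23.9%, in the same order, and an ISRE-like site (GAAA, any 2 bases, GAAA) in 3.69%, 3.35% and 10.4%. The ETS-IRF composite was in 2.72%, 4.47% and 4.64%, and the PU.1 site (GAGGAAGT) in 3.78%, 8.38% and 7.14%. The C/EBP site (TTGCNNCAA) was in 1.57%, 1.12% and 2.14%, the E-box (CAGGTG) in 16.0%, 23.5% and 17.9%, and the kB site in 24.1%, 27.9% and 19.6%. Base composition differed alongside, with a median GC content of 61.3% over all windows, 60% on the cDC1 side and 53.3% on the cDC2 side, and its part in these shares was not tested. The windows of Xcr1, Flt3, Clec9a, Batf3, Itgam, Ctsk and Acod1 held none of the 8 motifs, which says only that these letters are not in them. A match is a run of letters and not a bound site.

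Genes shared by conventional dendritic cells leaned to cDC1. Of 12 compared members, 6 were at least 4-fold higher in cDC1, 0 in cDC2, and the median difference was 2.01. Flt3, the receptor for the growth factor that sustains dendritic cells, stood at 179 CPM in cDC1 and 15.8 CPM in cDC2 (11.3-fold, 95% interval 10.5 to 12.3), beside 20.97 CPM in CD103int DC and 32.6 CPM in macrophages. Zbtb46, a transcription factor of conventional dendritic cells, stood at 152 CPM in cDC1 and 22.01 CPM in cDC2, beside 47.5 CPM in CD103int DC and 20.9 CPM in macrophages. The cDC2 levels of Flt3 and Zbtb46 were thus below or near those of the macrophage library. Bcl11a (354 and 26.9 CPM), the stem cell factor receptor Kit (67.8 and 12.1 CPM), the protease Adam19 (119.6 and 10.5 CPM) and the kynurenine enzyme Kmo (396 and 79.5 CPM) were the other 4 of the 6. Dpp4 (119 and 35.2 CPM) and Cbfa2t3 (193 and 71.99 CPM) passed 2-fold. Itgax, the integrin chain CD11c, stood at 769.7 CPM in cDC1 and 1438 CPM in cDC2, Cd83 at 176 CPM in cDC1 and 179 CPM in cDC2 and the MHC class II chain H2-Ab1 at 3659.9 CPM in cDC1 and 5553 CPM in cDC2, all within 2-fold. In the macrophage library Itgax and H2-Ab1 stood at 516 and 2146 CPM, below both dendritic cell libraries.

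The transcription factors of the 2 lineages had median differences of 0.40 (cDC1 factors) and -0.32 (cDC2 factors). Of 9 cDC1 factors, 1 was at least 4-fold higher in cDC1 and 3 at least 2-fold. Irf8 stood at 704 CPM in cDC1 and 226 CPM in cDC2, 3.11-fold (95% interval 3.05 to 3.18) higher in cDC1, a difference of 1.63. Batf3, its partner in cDC1, stood at 16.1 CPM in cDC1 and 12.6 CPM in cDC2, a difference of 0.33. Id2, which restrains E proteins, stood at 92.002 CPM in cDC1 and 90.2 CPM in cDC2, and Bcl6 at 85.5 CPM in cDC1 and 74.9 CPM in cDC2, so that 3 of the best known cDC1 factors lay within 2-fold. Zfp366, known as DC-SCRIPT, stood at 215 CPM in cDC1 and 59.1 CPM in cDC2, and the chromatin reader L3mbtl3 at 57.3 CPM in cDC1 and 12.2 CPM in cDC2. Etv6 (204 and 154 CPM) and Zfp217 (119 and 73.1 CPM) were within 2-fold. Nfil3, which acts upstream of Id2 in cDC1 development, stood at 73.2 CPM in cDC1 and 186 CPM in cDC2 and was higher in cDC2.

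Of 12 compared cDC2 factors, 2 were at least 4-fold and 4 at least 2-fold higher in cDC2. They were Cebpb (44.5 and 457 CPM), a factor of monocytes and emergency myelopoiesis, Prdm1 (13.3 and 70.6 CPM), which encodes BLIMP-1, Egr2 (57.6 and 153 CPM) and Cebpa (75.4 and 165 CPM). Irf4, the factor most tied to cDC2, went the other way at 152 CPM in cDC1 and 37.96 CPM in cDC2, a difference of 1.97, beside 71.6 CPM in CD103int DC and 49.9 CPM in macrophages. Klf4 stood at 119.7 CPM in cDC1 and 150.1 CPM in cDC2, Zeb2 at 281 CPM in cDC1 and 559 CPM in cDC2, Notch2 at 674 CPM in cDC1 and 484 CPM in cDC2 and Relb at 58.1 CPM in cDC1 and 46.5 CPM in cDC2, all within 2-fold. The other members Runx3 (158 and 158 CPM), the Notch effector Rbpj (307 and 358 CPM) and Rel (155 and 195 CPM) were within 2-fold as well. Among 11 factors of macrophages and monocytes, 5 were at least 4-fold higher in cDC2 and 0 in cDC1. Maf (8.79 and 148 CPM), the oxysterol receptor Nr1h3 (6.65 and 109 CPM), Pparg (2.94 and 39.8 CPM) and Tfec (1.57 and 19.9 CPM) were among them. Spi1, which encodes PU.1 and serves both lineages, stood at 302 CPM in cDC1 and 387 CPM in cDC2, within 2-fold, as did Klf2, Nr4a1, Hif1a and Bhlhe40.

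**Figure D3:**
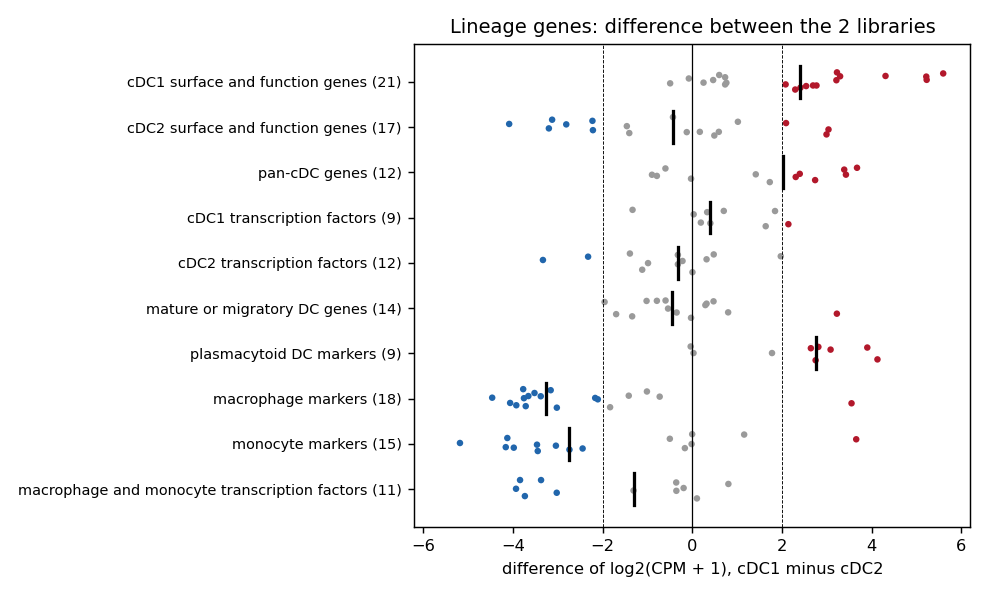
Difference of log2(CPM + 1), cDC1 minus cDC2, on the horizontal axis for each compared member of 10 lineage lists (rows, with the number of compared members), 1 point per gene, red at 2 or above and blue at -2 or below; the black bar is the list's median. The plasmacytoid, cDC1 and pan-cDC lists have medians of 2.75, 2.41 and 2.01, and the macrophage and monocyte lists of -3.27 and -2.74.

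Macrophage markers were higher in the cDC2 library. Of 18 compared members, 13 were at least 4-fold higher in cDC2 and 1 in cDC1, with a median difference of -3.27. Summed over the 20 members in the table, the list reached 1139 CPM in cDC1 and 5921 in cDC2, against 3876 in the CD103int DC and 5482 in the macrophage library. The sum in the cDC2 library was thus above that of the library labelled macrophage, but the order differed by gene. C1qa, C1qb and C1qc were higher in cDC2 than in macrophages, whereas Adgre1 and Csf1r were higher in macrophages. The sum is therefore no statement about each marker. The column header of the macrophage library carries a different prefix from the other 3, with no meaning given for it. Adgre1, which encodes F4/80, stood at 18.3 CPM in cDC1 and 262 CPM in cDC2 beside 173 CPM in CD103int DC and 335 CPM in macrophages, and Csf1r, the receptor for macrophage growth factor, at 409 CPM in cDC1 and 1096 CPM in cDC2 beside 925 CPM in CD103int DC and 1538 CPM in macrophages. The complement genes C1qa (36.7 and 572 CPM), C1qb (49.1 and 631 CPM) and C1qc (32.4 and 450.5 CPM) were higher in cDC2 than in macrophages, where they stood at 105, 137 and 88.4 CPM. Apoe (14.4 and 175 CPM), Ms4a7 (5.85 and 114 CPM) and Gpnmb (4.89 and 129 CPM) were also over 4-fold higher in cDC2, whereas the mannose receptor Mrc1 (187 and 311 CPM) lay within 2-fold. Cd163, the scavenger receptor for haemoglobin, was the exception at 18.3 CPM in cDC1 and 0.647 CPM in cDC2, with 2.30 CPM in CD103int DC and 2.55 CPM in macrophages. Lyve1 was listed at 0 in cDC1 and stood at 0.733 CPM in cDC2. Of 17 compared members of the cDC2 list, 8 were at least 2-fold higher in cDC2. They were Itgam, whose protein the label names, Sirpa, Ccr2, Clec4a1, Clec4a2, Clec4a3, Clec7a and Clec12a. The other 4 beyond 2-fold, Cd7, Cd209a, Clec10a and Tmem176a, were higher in cDC1. Irf4 and the macrophage list also went against the cDC2 label. Flt3 and Zbtb46, listed for both dendritic cell types, were lower in cDC2 than in cDC1 and below or near their macrophage levels. Itgam does not set cDC2 apart from the other libraries, with 638 CPM beside 688 CPM in CD103int DC and 945 CPM in macrophages. Itgax, listed for both dendritic cell types, was higher in cDC2 than in macrophages and within 2-fold of cDC1. The population is called cDC2 here only by its label. Of the 304 genes at least 4-fold higher in cDC2, 165 were higher still in macrophages, 136 lay between cDC1 and cDC2 there, and 3 lay below both. In CD103int DC, 64 of the 304 were higher still and 240 lay between. Of the 198 genes at least 4-fold higher in cDC1, 0 were higher still in either library. A class called higher in cDC2 below is thus higher than in cDC1, and not a trait of cDC2 alone. The part of macrophage RNA in the results below was not tested.

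Monocyte markers were mostly higher in cDC2. Of 15 compared members, 9 were at least 4-fold higher in cDC2 and 1 in cDC1, and the 16 in the table summed to 2386 CPM in cDC1 and 6784 in cDC2, below the 8784 CPM of the CD103int DC and the 15558 CPM of the macrophage library. Lyz2, lysozyme M, stood at 184 CPM in cDC1 and 3302 CPM in cDC2 (17.99-fold, 95% interval 17.6 to 18.4), Fn1, fibronectin, at 109 CPM in cDC1 and 1195 CPM in cDC2, and Vcan, the proteoglycan versican, at 1.43 CPM in cDC1 and 41.4 CPM in cDC2. Chil3, the chitinase-like protein Ym1 (chromosome 3, 106147554 to 106167564), stood at 1.33 CPM in cDC1 and 83.4 CPM in cDC2, a difference of -5.18, far below its 788 CPM in macrophages. Ly6c2, the antigen that defines classical monocytes, did not separate the libraries, with 233 CPM in cDC1 and 236 CPM in cDC2 against 1371 CPM in macrophages. S100a4 (262 and 263 CPM), Ly6a (409.7 and 460.4 CPM) and Ms4a4c (253 and 359 CPM) were within 2-fold as well. Plac8 stood at 486 CPM in cDC1 and 218 CPM in cDC2.

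Markers of plasmacytoid dendritic cells, the interferon-producing relatives of conventional dendritic cells, were higher in cDC1. Of 13 names, 10 were in the table and 9 were compared, of which 6 were at least 4-fold higher in cDC1 and 0 in cDC2, with a median difference of 2.75. The list summed to 997 CPM in cDC1 and 264 in cDC2. Siglech, a defining surface lectin of these cells, stood at 14.98 CPM in cDC1 and 1.38 CPM in cDC2. Tcf4, their lineage factor E2-2, stood at 501 CPM in cDC1 and 70.7 CPM in cDC2 (7.09-fold, 95% interval 6.84 to 7.36), beside 63.2 CPM in CD103int DC and 110.2 CPM in macrophages. Spib (48.6 and 6.94 CPM), Pacsin1 (26.4 and 2.24 CPM), the gut homing receptor Ccr9 (56.5 and 2.85 CPM) and Cd209d were the other 4, and several gene models overlap Ccr9. Runx2 stood at 76.9 and 21.8 CPM. Bst2 (91.6 and 89.98 CPM) and P2ry14 (59.8 and 61.4 CPM) were within 2-fold. None of the 10 was at 0 in either library. The other names of the list, Ly6d, Cox6a2 and Klk1, were absent from the filtered table, so that their levels are not known here. The part of plasmacytoid RNA in the cDC1 results was not tested.

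Markers of other cell types were low apart from single genes. Summed levels of T cell markers were 124 and 89.3 CPM, most of it the cytokine receptor Il7r (104 and 73.2 CPM), and those of NK cell markers 23.2 and 22.2 CPM. Ighm, the heavy chain of immunoglobulin M, stood at 148 CPM in cDC1 and 30.4 CPM in cDC2. Fibroblast markers summed to 10.1 and 45.4 CPM, and neutrophil markers to 13.5 and 71.96 CPM, of which Csf3r made up 8.87 and 62.2 CPM. Of 3 compared endothelial genes, 2 were at least 2-fold higher in cDC1, namely Cdh5, given below, and the VEGF receptor Kdr. Kdr stood at 425 CPM in cDC1 and 110.2 CPM in cDC2, while Pecam1 leaned the other way within 2-fold at 29.7 and 54.2 CPM. Cdh1, E-cadherin, stood at 416 CPM in cDC1 and 118 CPM in cDC2. Kdr and Cdh1 carried most of the endothelial and epithelial list sums in both libraries. The mast cell and erythroid markers in the table reached 10 CPM in neither library.

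Among genes of antigen presentation, those of class I lay almost all within 2-fold, and those of class II about as often as all compared genes. Of 24 genes of MHC class I and peptide loading, 23 were within 2-fold, where all compared genes gave 83.2%, with a median difference of -0.22. The class I chains H2-D1 (2254 and 3095 CPM) and H2-K1 (1312 and 2016 CPM) and their partner B2m (1089 and 2147 CPM) lay within 2-fold, with the limit that class I genes are close copies, as did the peptide transporter genes Tap1 (458 and 468 CPM) and Tap2 (198 and 203 CPM). Cd1d1, which presents lipids, was the exception at 3.28 and 12.1 CPM. Of 13 class II genes, 11 were within 2-fold, a share near that of all compared genes, and their median of 0.01 turned to -0.03 with a minimum of 25 CPM. Cd74, the invariant chain, stood at 6832 CPM in cDC1 and 9057 CPM in cDC2, and H2-Aa and H2-Eb1 at 3076 and 4601 CPM and 2891 and 4608 CPM. H2-Ob, which tempers class II loading, stood at 43.2 CPM in cDC1 and 19.7 CPM in cDC2, and Ctss, the protease that trims the invariant chain, at 884 CPM in cDC1 and 2998 CPM in cDC2, these 2 being the members beyond 2-fold. Proteasome subunits, with 43 compared, were all within 2-fold, with Psmb9 at 179.9 and 134 CPM and Psmb6 at 74.3 and 149.6 CPM, and their median of -0.06 turned to 0.03 when the columns were set to equal totals.

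Genes tied to cross-presentation were divided, and those of lysosomes leaned to cDC2. Of 15 cross-presentation genes, 9 were within 2-fold, where all compared genes gave 83.2%, and the median difference was -0.24. At least 4-fold higher were 3 in cDC1 and 2 in cDC2. The first were Wdfy4, Clec9a and Rab27a (103 and 21.9 CPM), a GTPase that brings the oxidase to phagosomes. The oxidase subunits themselves, Cyba (127 and 558 CPM), Cybb (513 and 1525 CPM) and Ncf4 (28.99 and 121 CPM), were higher in cDC2. The translocon subunit Sec61b (68.2 and 53.4 CPM) and the vesicle fusion factor Sec22b (36.6 and 32.03 CPM) were within 2-fold. Of 32 lysosomal genes, 8 were at least 4-fold higher in cDC2 and 0 in cDC1, with a median difference of -0.97. The proteases Ctsb (442 and 2442 CPM), Ctsd (99.2 and 577 CPM), Ctsc (319.7 and 1310.2 CPM) and Lgmn (104 and 939 CPM) and the phosphatase Acp2 (26.5 and 235 CPM) were on that side, and Ctsk, the collagen-cutting cathepsin K, was listed at 0 in cDC1 and stood at 28.7 CPM in cDC2. Cst3, cystatin C, an inhibitor of these proteases, was higher in cDC1 at 1933 CPM in cDC1 and 843 CPM in cDC2.

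T cell signals divided by molecule. Of 17 costimulatory and checkpoint genes, 6 were at least 2-fold higher in cDC2 and 2 in cDC1, where all compared genes gave 9.56% and 7.27%. Cd274, which encodes PD-L1, stood at 65.8 CPM in cDC1 and 216 CPM in cDC2, Pdcd1lg2, PD-L2, at 29.3 CPM in cDC1 and 104 CPM in cDC2 and Vsir, VISTA, at 80.02 CPM in cDC1 and 229 CPM in cDC2. Cd276, the checkpoint ligand B7-H3, stood at 0.245 CPM in cDC1 and 27.8 CPM in cDC2, 114-fold (95% interval 64.9 to 221) higher in cDC2. Icosl, the ligand of ICOS, was higher in cDC1 at 84.3 CPM in cDC1 and 33.9 CPM in cDC2. The CD28 ligands Cd80 (22.6 and 34.7 CPM) and Cd86 (103 and 131 CPM) and Cd40 (59.2 and 86.7 CPM) were within 2-fold. Among 14 genes of mature or migratory dendritic cells, 1 was at least 4-fold higher in cDC1 and 0 in cDC2, and 4 were at least 2-fold higher in cDC2. The first was Il4i1, an amino acid oxidase, at 264 CPM in cDC1 and 27.5 CPM in cDC2, which Nup62 overlaps on the same strand. Ccr7, the receptor for migration to lymph nodes, stood at 10.2 CPM in cDC1 and 18.3 CPM in cDC2, Fscn1 at 26.4 CPM in cDC1 and 14.8 CPM in cDC2, and Il12b at 3.59 and 1.38 CPM, under the minimum. Birc2 (37.7 and 26.9 CPM), Tmem123 (263 and 215 CPM) and Cd83 were within 2-fold, and the 4 members higher in cDC2 were Cd274 and the chemokine genes Ccl5 (6.05 and 26.4 CPM), Ccl17 and Ccl22.

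Cytokine and chemokine ligands were higher in cDC2. Of 12 compared cytokines, 6 were at least 4-fold higher in cDC2 and 0 in cDC1. Il1b stood at 232 CPM in cDC1 and 946 CPM in cDC2, its antagonist Il1rn at 17.9 CPM in cDC1 and 341 CPM in cDC2, Tnf at 5.61 CPM in cDC1 and 54.3 CPM in cDC2 and Osm, oncostatin M, at 16.7 CPM in cDC1 and 152 CPM in cDC2. Tnfsf12 (2.82 and 35.2 CPM) and Tnfsf13 (1.39 and 22.9 CPM) are neighbours and were the other 2, whereas Il16 (41.5 and 36.4 CPM) was within 2-fold. All 12 compared CC chemokine ligands were at least 2-fold higher in cDC2 and 8 at least 4-fold, with a median difference of -2.86. They included the myeloid chemokines Ccl6 (70.5 and 651 CPM) and Ccl9 (38.7 and 490.0 CPM), the monocyte attractant Ccl2 (1.18 and 33.4 CPM) and, listed at 0 in cDC1, Ccl7 (17.1 CPM in cDC2). The smallest differences were those of the dendritic cell chemokines Ccl17 (16.3 and 34.1 CPM) and Ccl22 (6.63 and 18.3 CPM). The 4 compared CXC ligands were at least 4-fold higher in cDC2, among them Cxcl9 (77.2 and 343 CPM) and Cxcl10 (36.8 and 155 CPM), which attract T cells, and Cxcl2 (17.1 and 172 CPM), which attracts neutrophils. Interleukin-15 itself, Il15, stood at 1.22 and 6.70 CPM and Il15ra at 5.24 and 8.17 CPM, under the minimum in both libraries.

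Receptors for these signals were divided. Of 10 chemokine receptors, 3 were at least 4-fold higher in cDC1, which were Xcr1, Ccr9 and Cxcr3 (11.05 and 1.03 CPM), and 1 in cDC2, Ccrl2 (33.2 and 237 CPM). All compared genes gave 2.34% and 3.59%. Ccr1 (70.4 and 209.6 CPM) and Cxcr4 (104 and 372 CPM) were at least 2-fold higher in cDC2, and Cx3cr1 (61.3 and 40.4 CPM) was within 2-fold. Among 30 cytokine and growth factor receptors, 19 were within 2-fold, where all compared genes gave 83.2%. Csf2rb2, a receptor chain for interleukin-3, was higher in cDC1 at 488 CPM in cDC1 and 172 CPM in cDC2, and Csf2ra, the GM-CSF receptor chain, higher in cDC2 at 128 CPM in cDC1 and 315 CPM in cDC2. Tgfbr1 (46.5 and 225 CPM), Tnfrsf1b (81.6 and 392 CPM), Il12rb1 (0.428 and 11.99 CPM) and Csf3r were at least 4-fold higher in cDC2, and Flt3 and Kit in cDC1. Downstream, Stat5a stood at 185 CPM in cDC1 and 53.2 CPM in cDC2 and Jak2 at 344 CPM in cDC1 and 129 CPM in cDC2, while 15 of 18 STAT, JAK and SOCS genes were within 2-fold, a share near the 83.2% of all compared genes, and Socs1 (9.01 and 27.6 CPM) was higher in cDC2. In the interleukin-15 and interleukin-2 pathway Stat5a alone passed 2-fold, and the list's median of 0.12 turned to -0.11 with a minimum of 1 CPM.

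Toll-like receptors, which sense microbial and cell-derived products, were divided. Of 12 receptors, 2 were at least 4-fold higher in cDC1, Tlr3 and the profilin receptor Tlr11 (47.5 and 9.03 CPM), and 4 in cDC2, namely Tlr1 (18.996 and 90.5 CPM), Tlr2 (45.4 and 200.4 CPM), Tlr8 (8.32 and 52.9 CPM) and Tlr13 (44.3 and 184 CPM). Tlr7 (18.9 and 71.8 CPM) and the lipopolysaccharide receptor Tlr4 (13.7 and 52.4 CPM) were at least 2-fold higher in cDC2. Tlr9, the sensor of unmethylated DNA, stood at 237 CPM in cDC1 and 221 CPM in cDC2, and Tlr12, the partner of Tlr11, at 22.3 CPM in cDC1 and 20.3 CPM in cDC2. C-type lectins were divided as well, with 8 of 28 at least 4-fold higher in cDC1 and 11 in cDC2, and a median of -0.37 that was -0.13 over protein-coding genes only and turned to 0.04 when these were also rescaled to equal protein-coding totals. Beside the members named above, Klrd1 (67.3 and 15.7 CPM) and Klra17 (21.3 and 3.64 CPM) were on the first side and Clec4e, known as Mincle (3.996 and 88.7 CPM), Clec4d (0.734 and 24.9 CPM), Clec4n, known as Dectin-2 (101 and 514 CPM), and Clec5a (2.14 and 57.7 CPM) on the second.

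Receptors for antibody and for complement were higher in cDC2. Of 8 Fc receptor genes, 7 were at least 2-fold higher in cDC2, led by Fcgr4 (10.9 and 129 CPM), Fcgr3 (49.9 and 338 CPM) and Fcgr1 (76.5 and 334 CPM). Fcgrt, the neonatal Fc receptor that recycles IgG, was higher in cDC1 at 310.1 CPM in cDC1 and 65.3 CPM in cDC2. Of 14 complement genes, 10 were at least 4-fold higher in cDC2 and 0 in cDC1, with a median difference of -3.80. C5ar1, the receptor for the anaphylatoxin C5a (chromosome 7, 16246743 to 16259540), had the largest difference of log2(CPM + 1) toward cDC2 of any compared gene, at 1.65 CPM in cDC1 and 126 CPM in cDC2 (76.6-fold, 95% interval 61.5 to 96.6). C3 (27.4 and 565 CPM), C3ar1 (19.5 and 303 CPM) and the alternative pathway protease Cfb (17.3 and 412 CPM) were on the same side, and properdin, Cfp (600.5 and 385 CPM), was within 2-fold. In macrophages C5ar1, C3 and Cfb were higher still, at 168, 1328 and 679 CPM, unlike the C1q genes above. Of 31 paired receptors of the CD300, Siglec and SIRP families, 14 were at least 4-fold higher in cDC2 and 1 in cDC1, which was Siglech. Sirpb1c (11.7 and 171 CPM), Cd300e (3.04 and 48.2 CPM), Trem2 (0.979 and 25.01 CPM) and Siglec1 (11.4 and 128 CPM) were among the first, and Pirb (309 and 345 CPM) and Cd300a (308 and 275 CPM) were within 2-fold.

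**Figure D4:**
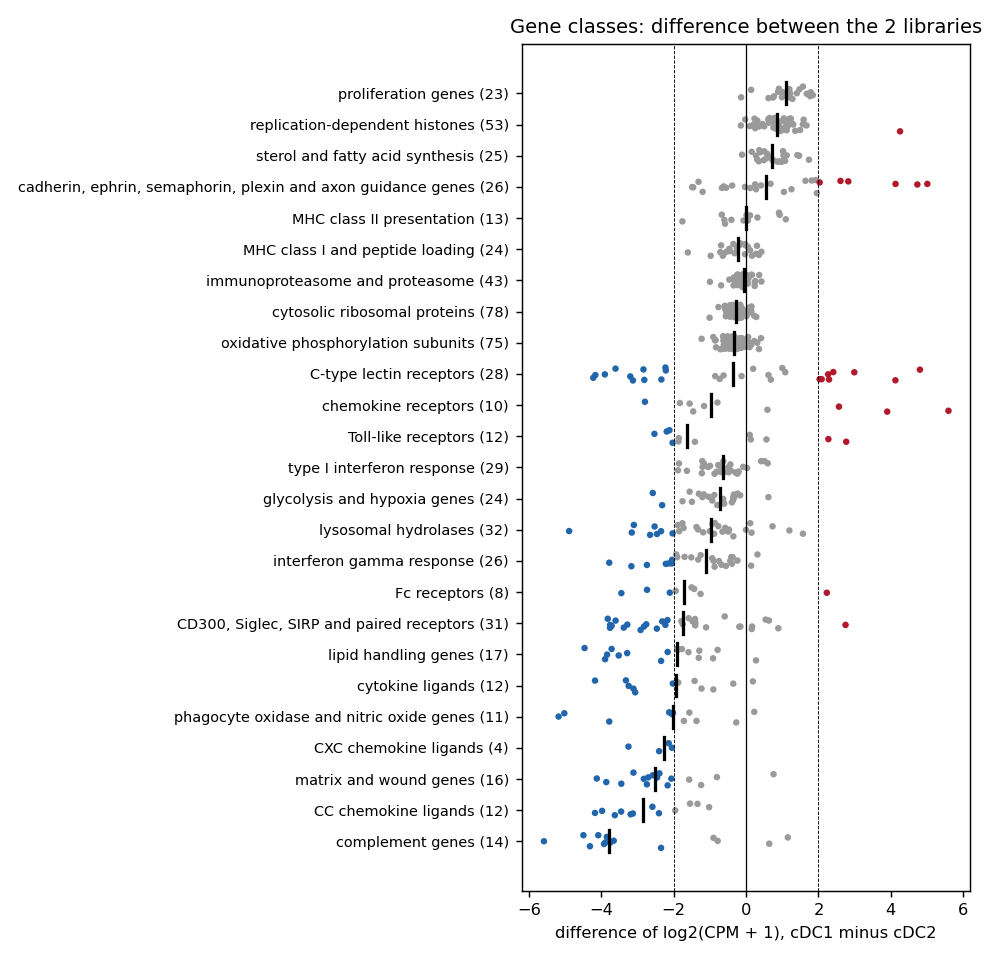
Difference of log2(CPM + 1), cDC1 minus cDC2, on the horizontal axis for each compared member of 25 gene classes (rows, with the number of compared members), 1 point per gene, red at 2 or above and blue at -2 or below; the black bar is the median. Complement, CC chemokine and matrix genes have medians of -3.80, -2.86 and -2.52, ribosomal, respiratory and MHC genes lie near 0, and proliferation genes have a median of 1.11.

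Effector and tissue genes of inflammatory myeloid cells stood on the cDC2 side. Of 11 oxidase and nitric oxide genes, 6 were at least 4-fold higher in cDC2 and 0 in cDC1. Arg1, which breaks down arginine (chromosome 10, 24915221 to 24927484), stood at 0.673 CPM in cDC1 and 59.7 CPM in cDC2 (88.8-fold, 95% interval 63.1 to 129), Nos2, which makes nitric oxide from it, at 2.08 CPM in cDC1 and 41.4 CPM in cDC2, and Acod1, which makes itaconate (chromosome 14, 103046977 to 103056573), at 1.18 CPM in cDC1 and 69.98 CPM in cDC2. Of 16 matrix and wound genes, 12 were at least 4-fold higher in cDC2, among them Thbs1 (17.002 and 261 CPM), Tgfbi (521 and 2185 CPM), the urokinase Plau (34.5 and 194 CPM) with its receptor Plaur (54.6 and 292 CPM), and Vegfa (11.6 and 74.2 CPM). The galectin Lgals1 (594 and 350.5 CPM) was within 2-fold. Metalloproteinases divided, with Mmp12 (225 and 1249.5 CPM), Mmp13 (3.51 and 75.4 CPM) and Mmp14 (76.1 and 381 CPM) on the cDC2 side and, on the cDC1 side, the membrane proteins Adam23 (1006 and 86.8 CPM), Adam11 (48.7 and 3.84 CPM) and Adam19. Among scavenger and efferocytosis receptors Msr1 (24.7 and 315 CPM), Stab1 (2.39 and 38.7 CPM) and Axl (156 and 925 CPM) were higher in cDC2, and Timd4, a receptor for phosphatidylserine, was higher in cDC1 at 17.96 CPM in cDC1 and 2.31 CPM in cDC2.

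Interferon-stimulated genes were modestly higher in cDC2. Of 29 type I response genes, 0 were at least 4-fold and 8 at least 2-fold higher in cDC2, with a median difference of -0.63. Rtp4 (22.7 and 86.5 CPM), Oasl1 (28.8 and 107 CPM) and Cmpk2 (28.4 and 90.2 CPM) had the largest differences, and Isg15 stood at 77.8 CPM in cDC1 and 156 CPM in cDC2. Ifi205 and Trim30a (288 and 202 CPM) leaned to cDC1 within 2-fold. Of 26 interferon gamma response genes, 7 were at least 4-fold and 13 at least 2-fold higher in cDC2. Guanylate-binding proteins Gbp4 (13.6 and 96.4 CPM), Gbp6 (10.9 and 106 CPM) and Gbp8 (8.34 and 42.5 CPM) were among these 7, with the caveat that the Gbp genes are close copies. Irf1 (128 and 235 CPM), Irgm1 (133 and 174 CPM) and the class II activator Ciita (491 and 395 CPM) were within 2-fold.

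Genes of cell adhesion and axon guidance contained some of the largest differences toward cDC1. Of 26 compared, 6 were at least 4-fold higher in cDC1 and 0 in cDC2, with a median difference of 0.54. Ptprf, a receptor phosphatase of growing axons (chromosome 4, 118208213 to 118291405), stood at 86.7 CPM in cDC1 and 1.72 CPM in cDC2 (50.3-fold, 95% interval 40.3 to 63.5), and Chl1, an adhesion molecule of neurons, at 109 CPM in cDC1 and 3.15 CPM in cDC2. Sema4f (28.6 and 0.690 CPM), Epha2 (35.7 and 5.02 CPM), Cdh5 (16.6 and 1.49 CPM) and Sema6d (28.2 and 6.14 CPM) were the other 4, and L1cam stood at 102 CPM in cDC1 and 32.1 CPM in cDC2. Plxna1 (117 and 331 CPM), Plxnd1 (146 and 405 CPM), Sema4d (244 and 609 CPM) and Nrp2 (67.3 and 156 CPM) were at least 2-fold higher in cDC2. Also among the 25 genes furthest toward cDC1 were Ngfr, the low affinity neurotrophin receptor, at 195 CPM in cDC1 and 8.60 CPM in cDC2, the septin Sept3 at 265 CPM in cDC1 and 13.8 CPM in cDC2, Pdzd4 at 58.6 CPM in cDC1 and 3.08 CPM in cDC2 and the phosphatase Ppm1e at 25.3 CPM in cDC1 and 0.970 CPM in cDC2. These 4 stood at 13.7, 59.97, 4.64 and 1.20 CPM in CD103int DC and at 9.60, 20.1, 4.10 and 1.76 CPM in macrophages.

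Integrin chains differed in both directions. Of 16 compared, Itgae and Itgb3 (82.8 and 7.14 CPM) were at least 4-fold higher in cDC1, and Itgam, Itga9 (3.22 and 78.8 CPM) and Itgb5 (2.43 and 97.8 CPM) in cDC2. Over all compared genes these shares were 2.34% and 3.59%. Itgb7, the partner of CD103, stood at 234 CPM in cDC1 and 138 CPM in cDC2, and Itgb2, the partner of CD11b and CD11c, at 645 CPM in cDC1 and 1328 CPM in cDC2. The remaining genes of the 25 furthest toward cDC1 included Gpr141b, a lincRNA in the annotation (chromosome 13, 19727426 to 19732951), at 65.3 CPM in cDC1 and 0.280 CPM in cDC2, the largest difference of log2(CPM + 1) of any compared gene, 5.69. Cyp7b1, an oxysterol hydroxylase, stood at 232 CPM in cDC1 and 12.6 CPM in cDC2, Alox5, which starts leukotriene synthesis, at 198 CPM in cDC1 and 13.2 CPM in cDC2, Pi16 at 194 CPM in cDC1 and 12.2 CPM in cDC2 and Apod, a lipid carrier, at 89.8 CPM in cDC1 and 5.82 CPM in cDC2. The transcription regulators Mycl (67.9 and 4.18 CPM), used by cDC1 for proliferation, and Aff3 (116 and 7.20 CPM), the Ras activator Rasgrp3 (25.5 and 0.517 CPM), Wfikkn2 (72.04 and 3.69 CPM) and Ttc39a (18.6 and 0.216 CPM) were also among them. The remaining genes of the 25 furthest toward cDC2 included Fam20c, a kinase of secreted proteins, at 0.204 CPM in cDC1 and 31.4 CPM in cDC2, Cd93 at 18.1 CPM in cDC1 and 398 CPM in cDC2, Fpr2, a formyl peptide receptor, at 0.877 CPM in cDC1 and 41.1 CPM in cDC2, Anxa3 at 0.224 CPM in cDC1 and 23.3 CPM in cDC2, Inhba, the activin A chain, at 5.26 CPM in cDC1 and 106 CPM in cDC2, and Adgre4 at 2.36 CPM in cDC1 and 57.2 CPM in cDC2.

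Growth and metabolism separated the libraries by smaller amounts. Of 23 proliferation genes, 14 were at least 2-fold higher in cDC1 and 0 in cDC2, with a median difference of 1.11. The list summed to 1740 CPM in cDC1 and 1203 in cDC2, beside 1710 in CD103int DC and 841 in macrophages. The cDC1 sum was thus near that of CD103int DC and is no trait of cDC1 alone. Top2a stood at 113 CPM in cDC1 and 34.6 CPM in cDC2, the ribonucleotide reductase subunit Rrm2 at 35.5 CPM in cDC1 and 9.57 CPM in cDC2, the cyclin Ccnb2 at 19.4 CPM in cDC1 and 4.68 CPM in cDC2 and Mki67 at 42.7 CPM in cDC1 and 25.1 CPM in cDC2. Replication-dependent histone genes, read here from near-identical copies, gave 21 of 53 at least 2-fold higher in cDC1 and 0 in cDC2, and one of them, Hist1h4m, was listed at 0 in cDC2 and stood at 18.1 CPM in cDC1. The histone list summed to 2919 CPM in cDC1 and 1698 in cDC2, beside 3103 in CD103int DC and 1611 in macrophages. Sterol and fatty acid synthesis gave 7 of 25 at least 2-fold higher in cDC1 and 0 in cDC2, with a median of 0.72. Fasn, fatty acid synthase, stood at 242 CPM in cDC1 and 71.8 CPM in cDC2, Fdps at 185 CPM in cDC1 and 68.6 CPM in cDC2 and Hmgcs1 at 187 CPM in cDC1 and 85.3 CPM in cDC2.

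Lipid handling and glycolysis genes leaned to cDC2. Of 17 lipid handling genes, 8 were at least 4-fold and 14 at least 2-fold higher in cDC2, among them Lpl, lipoprotein lipase (49.3 and 748 CPM), Pla2g7 (35.5 and 355 CPM) and the cholesterol exporter Abca1 (11.6 and 63.4 CPM). Of 24 glycolysis and hypoxia genes, 9 were at least 2-fold higher in cDC2 and 0 in cDC1, with Hk3 (44.9 and 228 CPM), Slc16a3 (64.7 and 221 CPM) and Tpi1 (163 and 462 CPM) as examples. Pfkp (635 and 414 CPM) was the member higher in cDC1, within 2-fold. Iron handling genes Fth1 (987 and 3386 CPM), Ftl1 (781 and 2835 CPM), Hmox1 (38.1 and 152 CPM) and Slc11a1 (23.9 and 303 CPM) were at least 2-fold higher in cDC2, while the transferrin receptor Tfrc (64.1 and 33.4 CPM) was within 2-fold. Among 12 amino acid enzymes, Il4i1, Kmo and Kynu (66.4 and 14.6 CPM), which act on aromatic amino acids, were at least 4-fold higher in cDC1 and Arg1 in cDC2. Cytosolic ribosomal protein genes, 77 of 78 within 2-fold, and respiratory chain subunits, 74 of 75, had medians of -0.28 and -0.33.

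Signalling genes were set against the 83.2% of all compared genes that were within 2-fold. Of 20 NF-kappaB genes, 16 were within 2-fold, a share near that of all genes, with Nfkb1 (509 and 248 CPM) and Bcl3 (66.6 and 31.6 CPM) higher in cDC1 and Ikbke (2.26 and 34.04 CPM) and Nfkbia (97.5 and 219 CPM) higher in cDC2. Of 23 immediate early genes, which respond to handling as well as to signals, 14 were within 2-fold, 7 were at least 2-fold higher in cDC2 and 2 in cDC1. Dusp1 (449.9 and 1493 CPM), Dusp2 (27.3 and 111 CPM) and Ier3 (30.3 and 123 CPM) were among the first, Egr3 (34.8 and 8.11 CPM) and Nr4a3 (258 and 87.98 CPM) the second, and Fos (821 and 1432 CPM) and Jun (546 and 371 CPM) were within 2-fold. Heat shock and unfolded protein response genes gave 16 of 17 within 2-fold, Hspa1a at 579 and 579 CPM among them, and Ddit3 (8.58 and 19.3 CPM) was at least 2-fold higher in cDC2. In the Notch pathway, Notch4 (26.3 and 2.22 CPM) and the ligand Jag2 (10.7 and 2.005 CPM) were higher in cDC1 and Notch1 (31.2 and 72.7 CPM) in cDC2.

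Over all 13976 genes in the table, 454 were listed at 0 in cDC1 and 19 in cDC2, so that more zeros in cDC1 are a trait of the whole column. Among the 8459 compared genes, 9 were listed at 0 in cDC1 and 2 in cDC2, and no fold is given for them. In cDC1 these were, with their cDC2 level, Ctsk, Ccl7, Gpr31b (22.4 CPM), Retnla (13.99 CPM), Cd300ld5 (13.2 CPM), Gm42742 (13.2 CPM), Trem3 (12.5 CPM), Fpr1 (11.3 CPM) and Col15a1 (10.7 CPM). Retnla, the secreted protein FIZZ1, stood far higher in the CD103int DC library, at 142 CPM. Gm42742 lies over Pagr1a, with which it may share reads. In cDC2 they were Hist1h4m and a second entry of Nnt, which overlaps the main Nnt model.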

How the data were processed

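RNA from 4 sorted populations was sequenced with a directional library kit, per the labels' protocols. The authors deposited 1 table of 13976 genes, a signal per gene in CPM (counts per 1000000 reads), TMM-scaled and filtered per the name of the deposited table. The aligner, the counter, the genome build and the counting strand were not given in any source used here. Gene IDs were all matched to GENCODE release M21 (GRCm38) for symbols, positions and overlaps. The samples were grouped by cell type label, 1 library per group, and no column was left without a sample. The deposited CPM columns sum to 905670 (cDC1) and 968810 (cDC2), and the value of 1 read, read from the lowest values, was 0.0204 and 0.0216 CPM, which gave the estimated depths of 44400000 and 44900000 reads. Of the values, 79.0% and 71.3% were whole multiples of it within 0.001 and the others fractions of a read, so no count test was made.

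The difference of log2(CPM + 1), cDC1 minus cDC2, was taken where the higher library reached 10 CPM. A gene was called at a difference of 2 (4-fold) or 1 (2-fold). Folds are CPM ratios with 95% intervals from Poisson error on the estimated reads. Named were the 25 genes with the largest difference each way, every compared member of the dendritic lineage lists, up to 4 members per direction of other lists, the genes next to the minimum, and Itgae and Itgam. Some genes are not reported here. Other genes were chosen after their values were seen. The members and lists were chosen with earlier results of these data known. The alternatives were other scalings, minimums, added values and gene classes. The calculation was run on simulated data with planted differences and counting error only. This checks the arithmetic and not replicate or amplification error. Python 3.11.15, numpy 2.4.6, pandas 2.3.3, scipy 1.17.1 and matplotlib 3.10.9 were used.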

Additional observations from a re-analysis of the deposited data

How the results depend on the processing

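With 1 library per population there was no replicate to leave out, and no result has a test. No paired analysis was possible because each population had 1 library and the labels carry no replicate numbers. At least 4-fold higher in cDC1 and in cDC2 were 198 and 304 genes as reported, 220 and 270 with columns of equal totals, 191 and 294 over protein-coding genes only, and 230 and 246 over these genes rescaled to equal protein-coding totals, the last chosen after seeing the data. At least 2-fold, the 615 and 809 genes became 717 and 718, 594 and 777, and 745 and 629 in the same order, so that 49.97%, 43.3% and 54.2% of the genes called lay on the cDC1 side against 43.2% as reported. Median-ratio scaling left the 4-fold counts at 198 and 304. It moved the median of the compared genes by only 0.00027, so that the unchanged counts say little. With a minimum of 25 CPM, 126 and 232 genes were at least 4-fold higher in cDC1 and in cDC2, and 374 and 605 at least 2-fold, so that the cDC1 side held 35.2% and 38.2%. A minimum of 1 CPM gave 1042 and 1376 genes at least 2-fold higher in cDC1 and in cDC2. Adding 5 before the logarithm gave 104 and 186 genes at least 4-fold higher, fewer because the added value shrinks differences of low genes. The median of the eicosanoid enzymes turned from -1.23 to 0.19 with a minimum of 25 CPM, where fewer genes were compared. The depth limits folds of genes near 0 in 1 library, as the interval of Gcsam shows.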

Other observations

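Transport and traffic genes that were not described above had shares within 2-fold near the 83.2% of all compared genes. Of 138 compared solute carriers, 111 were within 2-fold, 3 were at least 4-fold higher in cDC1 and 11 in cDC2, close to the shares of all compared genes on the first side, and the median of -0.09 turned to 0.01 with equal totals. On the cDC1 side stood the large neutral amino acid transporter Slc7a5 (373 and 73.6 CPM, cDC1 first and cDC2 second here and below), the glucose transporter Slc2a3 (40.5 and 4.83 CPM) and the riboflavin transporter Slc52a3 (22.2 and 2.20 CPM). On the cDC2 side stood the cystine transporter Slc7a11 (38.97 and 187 CPM), the arginine transporter Slc7a2 (4.16 and 59.6 CPM) and the iron exporter Slc40a1 (0.163 and 10.7 CPM). Of 34 Rab GTPases, 29 were within 2-fold, with Rab39 (12.9 and 1.12 CPM) and Rab27a high in cDC1 and Rab20 (1.46 and 33.4 CPM) in cDC2. Of 25 actin and migration genes, 22 were within 2-fold, with Actb at 18310.0 and 17858 CPM and Myo1e, the furthest, at 61.3 and 191 CPM.

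Some smaller families divided more. Of 17 purinergic genes, the ectoenzyme Entpd3 (15.02 and 0.819 CPM) and the receptor P2ry10 (227 and 59.4 CPM) were higher in cDC1, and the ATP receptors P2rx7 (17.6 and 61.4 CPM) and P2rx4 (50.1 and 168 CPM) and the ectoenzyme Entpd1, CD39 (90.2 and 237 CPM), in cDC2. Among 11 eicosanoid enzymes, Alox5 was at least 4-fold higher in cDC1 and Ptgs2, the inducible cyclooxygenase (49.7 and 291 CPM), in cDC2. Of 6 Ms4a genes, 3 were at least 2-fold higher in cDC2, with Ms4a6d at 40.1 and 287 CPM. Of 6 Schlafen genes, Slfn4 (12.3 and 121 CPM) and Slfn1 (30.5 and 133 CPM) were at least 4-fold higher in cDC2, while Slfn5 (331 and 329.8 CPM) was within 2-fold. The inflammasome and cytosolic sensor list had 7 of 21 members at least 2-fold higher in cDC2, where all compared genes gave 9.56%. Nlrp3 stood at 66.3 and 203 CPM and Nod2 at 20.02 and 67.9 CPM, and the DNA sensor gene Cgas was within 2-fold at 19.6 and 18.3 CPM. Of 35 compared lincRNA genes, 3 were at least 4-fold higher in cDC1 and 2 in cDC2, where all compared genes gave 2.34% and 3.59%. Counts this small say little about the class. Genes outside any list included, in the cDC1 library, the checkpoint receptor Lag3 (86.5 and 10.02 CPM), the collagen receptor Ddr1 (246 and 19.3 CPM) and the adhesion receptor Jaml (272 and 39.7 CPM), and in the cDC2 library Cd63 (11.1 and 202 CPM) and Igf1 (1.10 and 22.5 CPM), which were chosen after their values were seen.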
